A study of Mus musculus with 12 samples.

Results

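The genes described here are 7 protease inhibitor serpins that CD8 T cells can express, namely Serpinb9, Serpinb9b, Serpinb6a, Serpinb6b, Serpinb1a, Serpina3f and Serpina3g. They were taken by gene symbol, whatever their values, from tables that list 46078 genes, 69 of them with a symbol that starts with Serpin. All 7 passed the filter on low counts, as did 14009 genes in all. The cells were CD8 T cells from the spleen of C57BL/6 mice, harvested for RNA on day 7 of culture. All 4 groups received interleukin-2 and interleukin-15 (IL-2 and IL-15), cytokines that sustain survival and division of activated CD8 T cells. The IL-2 + IL-15 group received nothing else, the RA group also all-trans retinoic acid, the TGFβ group also transforming growth factor beta, and the TGFβ + RA group both. Each group has 3 libraries, which the labels call biological replicates without saying whether they came from separate animals, so p-values measure only the spread between these samples.

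Serpins are inhibitors that trap a protease by offering it an exposed stretch of the protein, the reactive centre loop, as bait: the protease cuts the loop, stays bound and is distorted. The letters of the loop therefore set which proteases a serpin can trap. Clade B serpins lack a secretion signal and act inside the cell, where cytotoxic lymphocytes use them against granzymes that leak from their own granules. Serpinb9 inhibits granzyme B, Serpinb6b granzyme A and Serpinb9b granzyme M, while Serpinb6a inhibits cathepsin G and Serpinb1a neutrophil elastase, proteinase 3 and cathepsin G. The Serpina3 genes are a mouse family of many copies related to human antichymotrypsin, and the product of Serpina3g, also known as Spi2A, inhibits cysteine cathepsins such as cathepsins B and L.

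The members lie in 2 clusters. In GRCm38, with the GENCODE M21 annotation, Serpina3f is at chr12:104214544-104221129 and Serpina3g at chr12:104236245-104241939, both on the plus strand and 15.1 kb apart. On chromosome 13, Serpinb6b (chr13:32965209-32979067), Serpinb9 (chr13:33003250-33017957) and Serpinb9b (chr13:33027416-33041884) follow each other on the plus strand, with gaps of 24.2 and 9.5 kb. Serpinb1a (chr13:32842092-32851185) and Serpinb6a (chr13:33917918-34002794) flank them on the minus strand.

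The coding sequence of the reactive centre loop is shown for each member, because its letters set the target and because the paired copies differ more there than in the coding bases before it. Each stretch runs 5′ to 3′ on the coding strand from the hinge codons to the last codon before the conserved phenylalanine codon that follows the loop, and lies within 1 exon. Capitals mark bases that differ from, or are absent in, the other member of the pair (Serpina3f and Serpina3g, Serpinb6a and Serpinb6b, Serpinb9 and Serpinb9b), and Serpinb1a has no partner here. The sequences are from the GENCODE M21 transcripts, with their GRCm38 positions and strands.
Serpina3f, chr12:104220239-104220322, plus strand: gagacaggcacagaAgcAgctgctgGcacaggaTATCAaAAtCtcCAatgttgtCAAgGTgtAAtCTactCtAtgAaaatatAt
Serpina3g, chr12:104241066-104241146, plus strand: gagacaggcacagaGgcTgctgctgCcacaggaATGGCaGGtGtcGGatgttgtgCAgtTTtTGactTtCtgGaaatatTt
Serpinb6a, chr13:33918128-33918199, minus strand: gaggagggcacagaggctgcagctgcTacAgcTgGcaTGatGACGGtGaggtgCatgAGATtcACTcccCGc
Serpinb6b, chr13:32978201-32978266, plus strand: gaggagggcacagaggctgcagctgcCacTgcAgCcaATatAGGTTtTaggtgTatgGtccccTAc
Serpinb9, chr13:33015693-33015761, plus strand: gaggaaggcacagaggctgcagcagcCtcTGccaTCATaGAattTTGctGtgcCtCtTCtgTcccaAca
Serpinb9b, chr13:33039796-33039873, plus strand: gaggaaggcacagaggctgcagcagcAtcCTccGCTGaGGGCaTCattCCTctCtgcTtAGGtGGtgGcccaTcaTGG
Serpinb1a, chr13:32842905-32842976, minus strand: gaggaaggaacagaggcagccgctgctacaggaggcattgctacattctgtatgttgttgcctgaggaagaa

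In each pair the hinge codons at the 5′ end are nearly the same and the capitals gather in the 3′ part, where the protease cuts. Serpina3f and Serpina3g are identical at 71.6% of aligned loop bases against 92.8% of the coding bases before the loop. Serpinb6a and Serpinb6b are identical at 75.8% against 87.4%, and Serpinb9 and Serpinb9b at 72.5% against 86.2%. GENCODE M21 gives Serpina3g a coding sequence of 744 bases and Serpina3f one of 1335, so the Serpina3 comparison covers the shorter one only. How many reads of a member could also match a copy depends on the read length, which is not given in the sources used here. Of the 50-base windows of Serpina3f transcripts 10.6% also occur in another gene, as do 15.5% of those of Serpina3g and 0.378% to 2.92% of those of the other 5 members. Of the 100-base windows, 3.4% for Serpina3f, 3.49% for Serpina3g and none for the other 5 members do. Of the exon bases of Serpinb6a, 29.3% are also annotated on the opposite strand (1110046J04Rik, Nqo2 and Ripk1), as are 8.3% of those of Serpinb9b (Gm36099). The strand setting of the counting is not given in the sources used here, so the small differences of Serpinb6a are uncertain in that respect.

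Levels are given as CPM, the counts of a gene relative to its library total after scaling by TMM, a normalization for composition, in replicates 1, 2 and 3 of each group. Fold changes are log2 with their standard error (SE) and come from edgeR's quasi-likelihood test on all genes. A gene was called where its p, adjusted by Benjamini-Hochberg over all genes tested, was under 0.05. Libraries held 18300206 to 33477037 counts. The T cell markers were abundant in every library (summed level 4900 to 8900 unscaled CPM for 7 markers), whereas Cd4 had at most 3.05 unscaled CPM. RA replicate 3 stood apart: its chi-square over genes, divided by the degrees of freedom, was 24 and 20.4 against the other RA libraries, where other replicate pairs had 3.79 to 12.5. TGFβ + RA replicate 3 held myeloid transcripts (Lyz2 with 323 counts, S100a9 with 177, S100a8 with 97) that had at most 23 counts in any other library. Leaving out that library changed the call of no member in any comparison. In bulk samples, fewer cells that express a gene and less RNA per cell cannot be told apart.

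Of the clade B serpins that inhibit granzymes, Serpinb9 and Serpinb6b were highest without TGFβ, lowest with TGFβ alone and between these with TGFβ + RA. Serpinb9 was at 94.7, 80.4 and 72.6 CPM in the 3 IL-2 + IL-15 libraries, at 90.7, 90.1 and 58.5 with RA, at 14.2, 14.2 and 14.5 with TGFβ, and at 42.2, 42.6 and 37.5 with TGFβ + RA. The first 2 groups overlapped, and neither of the other 2 overlapped with any group. With TGFβ alone Serpinb9 fell 5.78-fold (log2 fold change -2.53, SE 0.15, edgeR adjusted p = 3.52e-08), and adding RA to TGFβ raised it 2.85-fold (1.51, SE 0.15, adjusted p = 3.19e-06). Serpinb9 in TGFβ + RA remained below IL-2 + IL-15 (-1.02, SE 0.14, adjusted p = 2.58e-05) and below RA (-0.97, adjusted p = 4.87e-05). Without TGFβ, RA gave Serpinb9 a log2 fold change of -0.05 (SE 0.14, adjusted p = 0.839), whose sign turned when IL-2 + IL-15 replicate 1 (0.08) or RA replicate 3 (0.14) was left out.

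Serpinb6b followed the same order over a wider range. It was at 136, 102 and 100 CPM in the 3 IL-2 + IL-15 libraries, at 220, 183 and 108 with RA, at 10.3, 10.9 and 10.8 with TGFβ, and at 42.7, 46.7 and 43.4 with TGFβ + RA. All 3 TGFβ libraries were below every other library, and all 3 TGFβ + RA libraries were between them and the groups without TGFβ. Serpinb6b fell 10.6-fold with TGFβ alone (-3.40, SE 0.22, edgeR adjusted p = 8.2e-08) and rose 4.14-fold when RA was added to TGFβ (2.05, SE 0.23, adjusted p = 6.37e-06). It was lower in TGFβ + RA than in IL-2 + IL-15 (-1.35, SE 0.20, adjusted p = 4.31e-05) and than in RA (-1.94, SE 0.20, adjusted p = 1.95e-06). Its rise with RA alone (0.59, SE 0.19, adjusted p = 0.0314) came from groups that overlapped. That call was lost with only the 2 groups in the fit (adjusted p = 0.108) or without IL-2 + IL-15 replicate 2 (0.0987), IL-2 + IL-15 replicate 3 (0.115), RA replicate 1 (0.134) or RA replicate 2 (0.0955).

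Serpinb9b was close to the limit of detection. It was at 3.16, 0.773 and 0.952 CPM in the 3 IL-2 + IL-15 libraries, at 1.37, 1.47 and 0.809 with RA, at 0.0766, 0 and 0.12 with TGFβ, and at 0.212, 0.0941 and 0.0368 with TGFβ + RA. These are 134, 86, 5 and 8 counts over the 3 libraries of each group. The groups with TGFβ were below all libraries without it, and their fitted fold changes rest on these few counts and on the prior count: -4.51 (SE 0.78, edgeR adjusted p = 0.000416) with TGFβ alone, -3.91 (SE 0.72, adjusted p = 0.000343) with TGFβ + RA, and -3.50 (SE 0.76, adjusted p = 0.00127) for TGFβ + RA against RA. Without IL-2 + IL-15 replicate 1, the highest library, the first 2 were -3.62 and -3.02, and without TGFβ replicate 3 the first was -5.19. A difference between TGFβ + RA and TGFβ was not detectable at this depth (0.61, SE 1.30, adjusted p = 0.741).

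Serpinb6a moved in the same directions as its copy Serpinb6b with RA and with TGFβ, with much smaller changes in the comparisons with TGFβ. Its levels were 70.6, 65.5 and 63.9 CPM in the 3 IL-2 + IL-15 libraries, at 97.1, 87.6 and 72 with RA, at 49.2, 47.5 and 50.3 with TGFβ, and at 69.4, 73.5 and 69 with TGFβ + RA. The TGFβ libraries were below all others, and IL-2 + IL-15 and TGFβ + RA overlapped. Serpinb6a rose with RA (0.36, SE 0.08, edgeR adjusted p = 0.00589), fell with TGFβ (-0.44, SE 0.09, adjusted p = 0.000893) and rose when RA was added to TGFβ (0.53, SE 0.09, adjusted p = 0.000214). TGFβ + RA against IL-2 + IL-15 gave 0.08 (SE 0.08, adjusted p = 0.397), and TGFβ + RA was below RA (-0.28, SE 0.08, adjusted p = 0.0119) with overlapping groups.

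**Figure D1:**
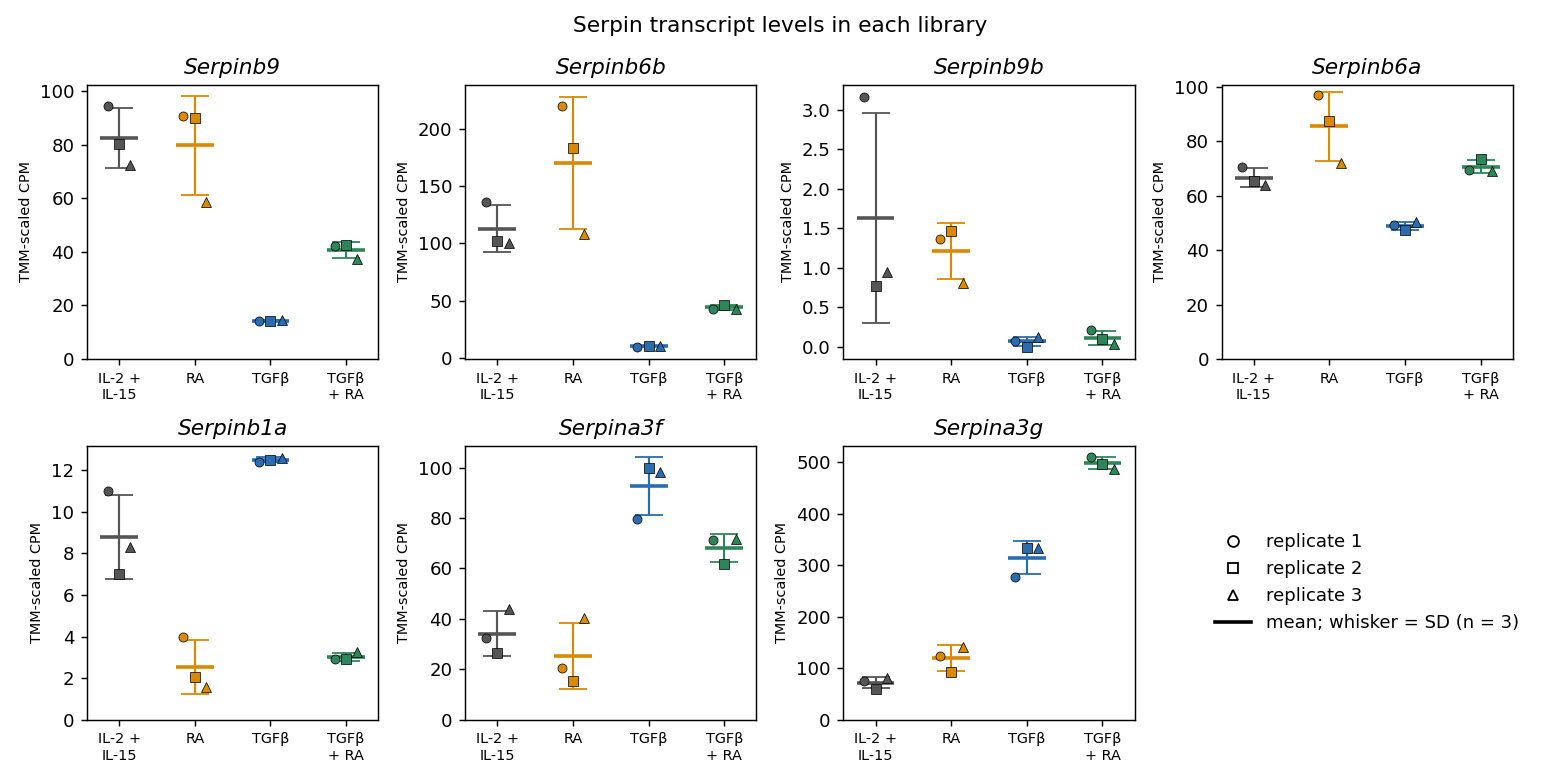
Level of each of the 7 serpins in TMM-scaled CPM (vertical axes, one scale per gene) in the 4 culture groups (horizontal axes); points are the 3 libraries, bars the mean and whiskers the SD. Serpinb9 and Serpinb6b are lowest in TGFβ and intermediate in TGFβ + RA, Serpinb1a is low in both groups with RA, and Serpina3g is highest in TGFβ + RA, where its libraries lie at 510, 497 and 487.

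Serpinb1a, the elastase and proteinase 3 inhibitor, was the member that fell with RA in both settings. It was at 11, 7 and 8.32 CPM in the 3 IL-2 + IL-15 libraries, at 4, 2.07 and 1.57 with RA, at 12.4, 12.5 and 12.6 with TGFβ, and at 2.91, 2.92 and 3.24 with TGFβ + RA. Every library with RA was below every library without it. RA lowered Serpinb1a 3.45-fold without TGFβ (-1.79, SE 0.25, edgeR adjusted p = 0.000143) and 4.12-fold with TGFβ (-2.04, SE 0.24, adjusted p = 1.12e-05), and TGFβ + RA was below IL-2 + IL-15 (-1.53, SE 0.24, adjusted p = 8.34e-05). With TGFβ alone the groups did not overlap but the gene was not called (0.51, SE 0.21, adjusted p = 0.071). Alternatives under which it was called include no filter on low counts (adjusted p = 0.0219), only the 2 groups in the fit (0.0137), and leaving out IL-2 + IL-15 replicate 1 (0.0264), RA replicate 1 (0.0106) or RA replicate 3 (0.0268). TGFβ + RA against RA gave 0.25 (SE 0.27, adjusted p = 0.441), which was 0.70 (adjusted p = 0.0169) without RA replicate 1 and -0.05 when its copies were summed with it.

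The Serpina3 genes rose with TGFβ, the opposite direction to the granzyme inhibitors. Serpina3g was at 74.6, 60.1 and 81.5 CPM in the 3 IL-2 + IL-15 libraries, at 124, 92.8 and 142 with RA, at 278, 334 and 333 with TGFβ, and at 510, 497 and 487 with TGFβ + RA. The 4 groups stood in that order with no overlap between any of them. TGFβ alone raised Serpina3g 4.37-fold (2.13, SE 0.14, edgeR adjusted p = 7.57e-08) and TGFβ + RA 6.9-fold (2.79, SE 0.14, adjusted p = 1.7e-09). RA raised it 1.66-fold without TGFβ (0.73, SE 0.14, adjusted p = 0.00137) and 1.58-fold with it (0.66, SE 0.13, adjusted p = 0.00115), and TGFβ + RA was above RA (2.06, SE 0.14, adjusted p = 3.75e-08). The rise with RA alone was not called when all Serpina3 genes were summed (0.44, adjusted p = 0.0552), an alternative chosen after seeing the data.

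Serpina3f rose with TGFβ as its neighbour did, without the rise with RA. It was at 32.3, 26.3 and 44 CPM in the 3 IL-2 + IL-15 libraries, at 20.6, 15.4 and 40.2 with RA, at 79.7, 100 and 98.2 with TGFβ, and at 71.1, 61.7 and 71.8 with TGFβ + RA. Both groups with TGFβ were above both groups without it. TGFβ raised Serpina3f 2.7-fold (1.43, SE 0.26, edgeR adjusted p = 0.000509), TGFβ + RA raised it 1.98-fold (0.99, SE 0.26, adjusted p = 0.00423), and TGFβ + RA was 2.71-fold above RA (1.44, SE 0.27, adjusted p = 0.00038). RA gave -0.45 (SE 0.27, adjusted p = 0.245) without TGFβ and -0.44 (SE 0.25, adjusted p = 0.167) with it. Without RA replicate 3 the first was called (-0.94, adjusted p = 0.00192), and so was the second at nearly the same value (-0.45, adjusted p = 0.0198). With TGFβ the groups did not overlap, and the fall was also called with only the 2 groups in the fit (adjusted p = 0.000887) and with no filter on low counts (0.0467).

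**Figure D2:**
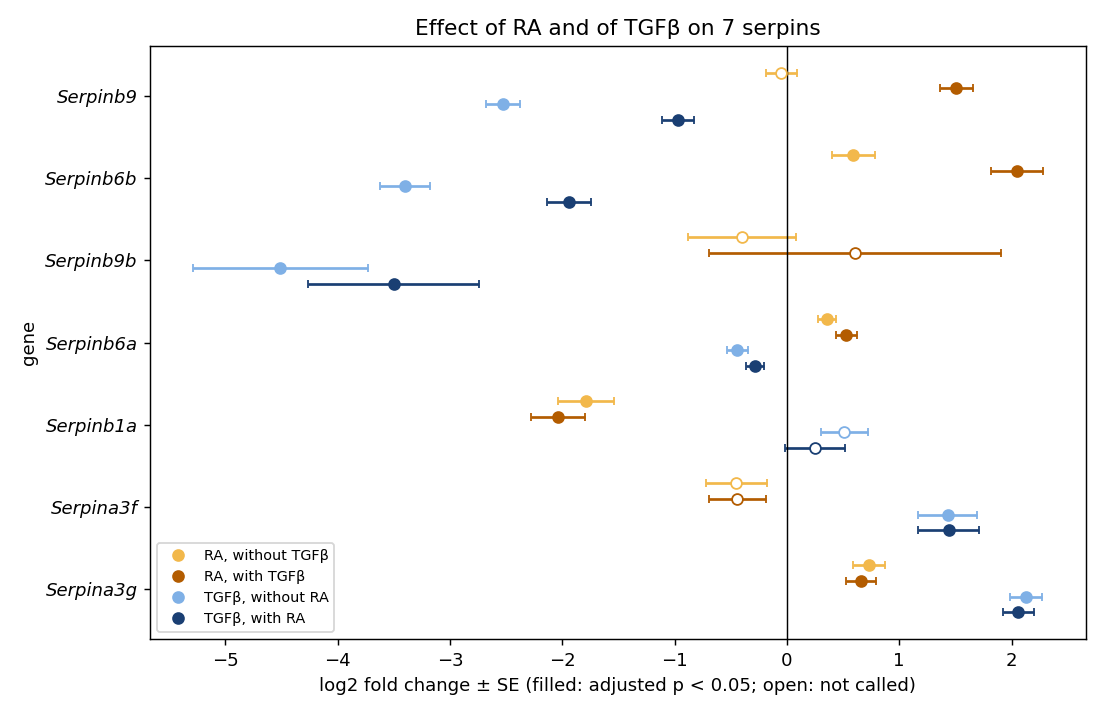
Log2 fold change with its SE (horizontal axis) of the 7 serpins (vertical axis) for RA added without or with TGFβ and for TGFβ added without or with RA; filled points were called and open points were not. For Serpinb9 and Serpinb6b the RA effects without and with TGFβ are far apart (-0.05 and 1.51, 0.59 and 2.05), while for Serpina3g they nearly coincide (0.73 and 0.66).

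Whether RA acted differently with TGFβ than without it was tested as the interaction, the RA effect with TGFβ minus that without. Serpinb9 (1.56, SE 0.21, edgeR adjusted p = 0.000158) and Serpinb6b (1.46, SE 0.29, adjusted p = 0.00352) were called, as were 19.3% of all genes in either direction. Both values are positive. For Serpinb9, RA gave 1.51 with TGFβ and -0.05, not called, without it, and for Serpinb6b 2.05 and 0.59. Equally, TGFβ lowered both genes less in the presence of RA. The Serpinb6b interaction was not called when Serpinb6a and the other Serpinb6 genes were summed with it (0.43, adjusted p = 0.177). The other 5 were not called, with values of -0.07 (SE 0.19) for Serpina3g, 0.01 (SE 0.36) for Serpina3f, 0.17 (SE 0.12) for Serpinb6a, -0.26 (SE 0.35) for Serpinb1a and 1.01 (SE 1.40) for Serpinb9b.

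The number of members called was read against all genes tested. With RA alone 3 members were called higher and 1 lower, where 26.7% of all genes were called (12.4% higher, 14.3% lower). With TGFβ alone 2 were higher and 4 lower, where 43.1% were called (20.7% higher, 22.4% lower). With TGFβ + RA against IL-2 + IL-15 again 2 were higher and 4 lower, where 63.2% were called (30.8% higher, 32.4% lower). With TGFβ + RA against TGFβ 4 were higher and 1 lower, where 43% were called (20.3% higher, 22.7% lower), and against RA 2 were higher and 4 lower, where 60.2% were called (29.4% higher, 30.8% lower). For the interaction 2 were higher and 0 lower, where 19.3% were called (6.95% higher, 12.3% lower). The median log2 fold change of the members was -0.44 with TGFβ and -1.02 with TGFβ + RA, both against 0.00 over all genes, with members far from it on both sides. Groups did not overlap for 3 members with RA (36% of all genes), 7 with TGFβ (56.1%), 6 with TGFβ + RA against IL-2 + IL-15 (69.9%), 6 against TGFβ (57.9%) and 5 against RA (64.5%).

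To compare levels between genes, CPM were divided by the length of the annotated exons in kb. That length pools the exons of all annotated transcripts of a gene, 5.41 kb for Serpinb6a and 2.1 kb for Serpina3g. A gene whose expressed transcripts are shorter than this gets too low a level. Shares, and the ratios per kb given below, depend on it. Which transcripts were expressed was not tested. Summed over the 7 genes, the level per kb ran from 139 ± 16 in IL-2 + IL-15 over 183 ± 24.7 with RA and 214 ± 20.2 with TGFβ to 312 ± 5.92 with TGFβ + RA (SD, n = 3 each). The makeup of that sum changed more than its size. Serpinb6b was the largest part in IL-2 + IL-15 (35.7%), ahead of Serpina3g (24.6%) and Serpinb9 (17%). In TGFβ Serpina3g made up 70.1%, Serpina3f 18.9%, Serpinb6b 2.22% and Serpinb9 1.93%. In TGFβ + RA the share of Serpina3g was 75.8%. The RA libraries differed among themselves, with Serpinb6b at 46% and 46.3% in replicates 1 and 2 and at 29.1% in replicate 3, where Serpina3g led with 41.2%.

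**Figure D3:**
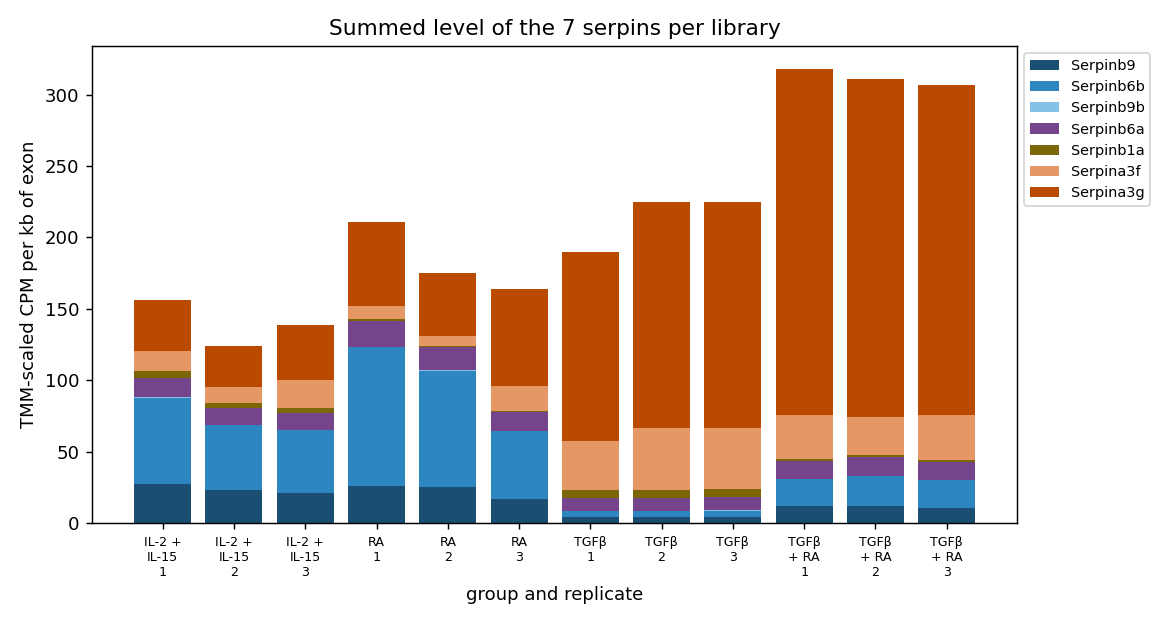
Summed level of the 7 serpins in each of the 12 libraries (vertical axis, TMM-scaled CPM per kb of exon), stacked by gene. Serpinb6b is the largest part in the 3 IL-2 + IL-15 libraries, and Serpina3g makes up 69.5% to 76.1% of the sum in the 6 libraries with TGFβ.

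Gzmb, granzyme B, was at 1650, 1270 and 1290 CPM in the 3 IL-2 + IL-15 libraries, at 2530, 1980 and 1130 with RA, at 664, 531 and 618 with TGFβ, and at 375, 581 and 475 with TGFβ + RA. It fell with TGFβ (-1.21, SE 0.23, edgeR adjusted p = 0.000857) and with TGFβ + RA (-1.55, SE 0.23, adjusted p = 6.07e-05), and adding RA to TGFβ gave -0.34 (SE 0.23, adjusted p = 0.258), where Serpinb9 rose. With only these 2 groups in the fit that last difference was called (-0.35, adjusted p = 0.0379). The log2 ratio of Serpinb9 to Gzmb per kb was -5.37 ± 0.09 with IL-2 + IL-15, -5.80 ± 0.27 with RA, -6.68 ± 0.17 with TGFβ and -4.81 ± 0.33 with TGFβ + RA (SD, n = 3). The inhibitor transcript was thus far below the protease transcript in every library, least so in TGFβ + RA.

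Gzma, granzyme A, rose with TGFβ, where its inhibitor Serpinb6b fell, and both rose with RA alone. It was at 181, 165 and 198 CPM in the 3 IL-2 + IL-15 libraries, at 1490, 681 and 428 with RA, at 625, 561 and 694 with TGFβ, and at 2700, 2890 and 2820 with TGFβ + RA. TGFβ + RA was 15.5-fold above IL-2 + IL-15 (3.95, SE 0.34, edgeR adjusted p = 2.76e-07). The log2 ratio of Serpinb6b to Gzma per kb was -1.86 ± 0.29 with IL-2 + IL-15, -3.38 ± 0.47 with RA, -7.04 ± 0.17 with TGFβ and -7.15 ± 0.04 with TGFβ + RA (SD, n = 3). The last 2 groups overlapped, so the rise of Serpinb6b with RA in TGFβ cultures was met by a rise of Gzma of like size (2.16, SE 0.31, adjusted p = 8.2e-05).

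Gzmm, granzyme M, fell with TGFβ (-2.60, SE 0.34, edgeR adjusted p = 3.33e-05), as its inhibitor Serpinb9b did. Its levels were 14.6 CPM with IL-2 + IL-15, 7.16 with RA, 2.39 with TGFβ and 2.05 with TGFβ + RA (means, n = 3; SD 7.61, 2.16, 0.366 and 0.175). No ratio to Serpinb9b was tested, since TGFβ replicate 2 had 0 counts of Serpinb9b.

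Ctsb and Ctsl, the textbook targets of Serpina3g, changed less with TGFβ than Serpina3g did. Ctsb, cathepsin B, was at 222 ± 2.79 CPM with IL-2 + IL-15, 293 ± 16 with RA, 247 ± 4.57 with TGFβ and 269 ± 4.42 with TGFβ + RA, and Ctsl, cathepsin L, at 13.6 ± 2.13, 13.5 ± 1.38, 20.2 ± 0.85 and 19.4 ± 1.77 (SD, n = 3). The log2 ratio of Serpina3g to Ctsb per kb was -0.11 ± 0.21 with IL-2 + IL-15, 0.21 ± 0.38 with RA, 1.87 ± 0.16 with TGFβ and 2.41 ± 0.02 with TGFβ + RA. That to Ctsl was 4.03 ± 0.24, 4.75 ± 0.16, 5.59 ± 0.13 and 6.31 ± 0.10 in the same order. Over the 4 ratios, 20 comparisons of 2 groups were made with an exact two-sided permutation test, which for 3 against 3 libraries cannot give a p below 0.1. The groups reached that minimum in all comparisons (adjusted p = 0.111) but Serpinb6b to Gzma in TGFβ + RA against TGFβ and Serpina3g to Ctsb in RA against IL-2 + IL-15 (exact p = 0.3 and adjusted p = 0.3 for both).

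**Figure D4:**
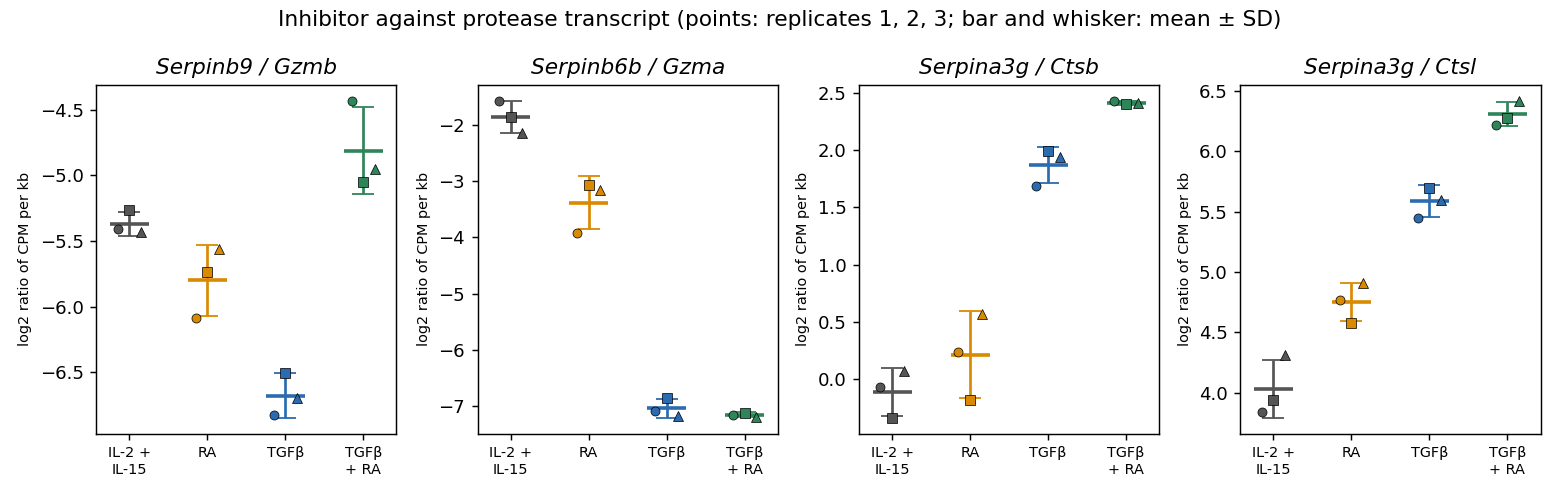
Log2 ratio of inhibitor to protease transcript, each in CPM per kb (vertical axes, one scale per pair), in the 4 groups (horizontal axes); points are libraries, bars and whiskers the mean ± SD. Serpinb9 to Gzmb is lowest in TGFβ (-6.68) and highest in TGFβ + RA (-4.81), Serpinb6b to Gzma is low in both groups with TGFβ, and both Serpina3g ratios are highest in TGFβ + RA.

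The target proteases named above for Serpinb1a and Serpinb6a were nearly absent. Elane, neutrophil elastase, had at most 2 counts in a library, Prtn3, proteinase 3, at most 6, and Ctsg, cathepsin G, at most 28, and none of them passed the filter. The inflammatory caspases Casp1 and Casp4, listed with these proteases, did pass it. Their means were 22.3 and 6.44 CPM with IL-2 + IL-15, and 10.3 and 2.82 with TGFβ + RA. Both were lower in the latter (-1.11, SE 0.15, edgeR adjusted p = 1.84e-05, and -1.20, SE 0.19, adjusted p = 9.72e-05).

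The list of granzyme genes and cytotoxic partners includes Gzma, Gzmb and Gzmm, so these genes, described above, are counted again here. Of its 12 genes, 11 were tested. With TGFβ alone 3 were called higher and 6 lower (median log2 fold change -1.21, against 0.00 over all genes), and with RA alone 8 higher and 1 lower (median 1.62). Over all genes, 20.7% were called higher and 22.4% lower with TGFβ, and 12.4% higher and 14.3% lower with RA. Some of the genes counted were near the floor: Gzmf had 2 to 4 counts and Gzme 13 to 33 in the IL-2 + IL-15 libraries. Prf1, perforin, which forms the pore through which granzymes enter a target, rose with RA alone (1.11, SE 0.25, edgeR adjusted p = 0.00536), where Serpinb9 was not called, but the groups overlapped for Prf1 too. It fell with TGFβ (-3.49, SE 0.32, adjusted p = 1.62e-06) and rose when RA was added to TGFβ (2.71, SE 0.33, adjusted p = 1.52e-05). Of 14 cathepsins, 12 were tested, with 9 called higher, 0 lower and 3 not called with TGFβ alone (median 0.39), and 5 higher and 4 lower with TGFβ + RA against IL-2 + IL-15. In the latter comparison 30.8% of all genes were called higher and 32.4% lower. Ctss, cathepsin S, fell when RA was added to TGFβ (-2.66, SE 0.17, adjusted p = 2.99e-08). Of the cystatins, another class of cysteine protease inhibitors, 4 were tested, with 1 called higher and 1 lower with TGFβ. Cst7, cystatin F, which acts on cathepsins in granules, fell with TGFβ (-1.54, SE 0.12, adjusted p = 2.63e-07) and rose when RA was added (0.61, SE 0.11, adjusted p = 0.000724), the directions of Serpinb9 and Serpinb6b. Cst3, cystatin C, went the other way: it rose with TGFβ (0.94, SE 0.09, edgeR adjusted p = 1.95e-06) and fell when RA was added (-0.37, SE 0.09, adjusted p = 0.0036).

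Most other serpins had few or no counts: of 62 other serpin genes, 41 had no count in any library and 12 had 1 to 20 counts in all 12 libraries together. Of the 7 that were tested, 3 were called higher and 3 lower with TGFβ, where 20.7% and 22.4% of all genes were. They include Serpine2, protease nexin 1, an inhibitor of thrombin, which was at 80, 48.7 and 41.3 CPM in IL-2 + IL-15 and at 9.84, 8.68 and 10.2 in TGFβ. Serpine2 fell with TGFβ (-2.56, SE 0.30, edgeR adjusted p = 1.31e-05) and lay at 7.67, 9.38 and 9.71 CPM in TGFβ + RA, still below IL-2 + IL-15 (-2.65, SE 0.30, adjusted p = 4.28e-06). Serpini1, neuroserpin, rose with TGFβ (0.81, SE 0.11, adjusted p = 3.58e-05) and fell when RA was added to TGFβ (-1.67, SE 0.11, adjusted p = 5.02e-08). The copies of the members were low: those of Serpina3f and Serpina3g held 97 counts against 93593 of the members, those of Serpinb1a 129 against 2087, those of Serpinb6a and Serpinb6b 1 against 46428 and those of Serpinb9 and Serpinb9b 0 against 16971.

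Across the 12 libraries, the gene most like Serpinb9 among 9508 compared was its neighbour Serpinb6b (Pearson r of log2 CPM 0.986). Those most like the other members were Emilin2 for Serpinb6b (0.989), Gpc1 for Serpinb6a (0.982), Lzic for Serpinb9b (0.984), Klrc1 for Serpinb1a (0.974), Zfp414 for Serpina3f (0.976) and Calcoco1 for Serpina3g (0.994). These are descriptions of libraries that share groups and depth, with no test.

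Some genes listed as markers of other cell types moved with some members. The summed level of 6 NK cell markers was 11.9 to 24.7 unscaled CPM with IL-2 + IL-15, 25.1 to 68.4 with RA, 3.58 to 5.23 with TGFβ and 6.5 to 9.48 with TGFβ + RA, the order of the groups for Serpinb6b. Klrb1c made up most of it in both groups without TGFβ, and Ncr1 had at most 14 counts in a library. Other markers of the list did not keep that order. Fcer1g was at 1.35 to 4.04 with IL-2 + IL-15 and 3.99 to 5.78 with TGFβ + RA, and Tyrobp at 0.916 to 1.82 and 1.09 to 1.93. Klra8 was at 1.08 to 1.85 with IL-2 + IL-15 and 1.05 to 1.39 with RA. Itgax, in the dendritic cell list, was at 89 to 152 unscaled CPM with IL-2 + IL-15, 212 to 356 with RA, 17.4 to 20.6 with TGFβ and 55.1 to 68.8 with TGFβ + RA. These values were nearly the whole summed level of the 5 dendritic cell markers (89.2 to 152, 212 to 356, 17.8 to 20.9 and 55.2 to 69 in the same order). Of the 5 markers, 1 had no counts. The summed level of 5 B cell markers was 12.7 to 15.8 unscaled CPM with IL-2 + IL-15, 15.7 to 17.5 with RA, 28.6 to 31 with TGFβ and 22.5 to 26.5 with TGFβ + RA, higher in both groups where Serpina3f and Serpina3g were high. Cd79b alone made up nearly all of that sum, at 28.3 to 30.7 with TGFβ, while Ms4a1 had at most 1 count in a library. The 4 mast cell and basophil markers summed to 5.45 to 8.15 unscaled CPM with IL-2 + IL-15, 27.1 to 41.3 with RA, 3.42 to 10.4 with TGFβ and 18.8 to 36.7 with TGFβ + RA. Among them Fcer1a (0 to 0.174 without TGFβ, 0.633 to 9.36 with it) and Ms4a2 (0 in all 6 libraries without TGFβ, 0.127 to 2.11 with it) were higher where the Serpina3 genes were high. The summed level was instead higher in both groups with RA, and with TGFβ alone it overlapped IL-2 + IL-15. Cpa3 and Mcpt8, the rest of the list, made up nearly all of that sum without TGFβ. Zbtb7b, in the CD4 T cell list, was at 63.3 to 83.2 unscaled CPM without TGFβ and 26 to 35.2 with it, lower where the granzyme inhibitors were low. Cd4, the rest of that list, was at only 1 to 3.05 unscaled CPM without TGFβ and 0.288 to 0.755 with it. The part of such cells in the results was not tested.

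The promoters of Serpina3f and Serpina3g, which rose together with TGFβ, are alike and share a motif. In the RefSeq windows of 250 bases before to 50 after the start (GRCm38.p6), which 6 of the 7 members have, both hold TTCNNNGAA, the STAT element, shown in capitals with bases on either side.
Serpina3f, chr12:104214393-104214461, plus strand: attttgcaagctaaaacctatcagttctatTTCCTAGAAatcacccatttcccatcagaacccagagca
Serpina3g, chr12:104236084-104236146, plus strand: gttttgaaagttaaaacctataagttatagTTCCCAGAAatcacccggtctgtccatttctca
The motif begins 121 bases before the first RefSeq start of Serpina3f and 33 before that of Serpina3g, and is also in a Serpinb6a window. The GENCODE M21 start of Serpina3g (104236245) lies further downstream than the RefSeq one, so the distance for this gene depends on the annotation. Of 32851 promoters, 8.3% hold the motif, on either strand. This motif was searched after the Serpina3f promoter had been read, and the set of 4 motifs was chosen after the data were seen, so the match is a description only. An interferon element was in Serpinb9 and Serpinb6a (3.44% of promoters), and in Serpinb6a it overlaps the STAT element. The SMAD palindrome GTCTAGAC (0.213%) and a retinoid direct repeat (0.00913%) were in none of the members' windows.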

How the data were processed

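Stranded mRNA libraries from cultured CD8 T cells were sequenced, per the labels' protocols, and reads were aligned with STAR and assigned with featureCounts on GRCm38, per the submitters' processing notes. Versions, annotation release, strand setting and the handling of multiply mapped reads: not given in the sources used here. Per the labels and the values, the authors deposited raw counts, 18300206 to 33477037 per library. All 12 libraries entered 1 edgeR 4.0.16 quasi-likelihood fit in R 4.3.3 (filterByExpr, minimum count 10; TMM; a mean per group; 8 residual degrees of freedom). Log2 fold changes use a prior count of 0.125, and each SE is the absolute log2 fold change divided by the root of the F statistic. Exon lengths and sequences are from GENCODE M21, which holds 98% of the identifiers. The members and gene lists were chosen with earlier results of these data known. Named genes are the 7 members, their textbook target proteases and up to 4 called genes per list and comparison with the smallest adjusted p, of which only some are printed. Alternatives were DESeq2 size factors, the Wald test of DESeq2 1.42.0, no filter, the replicate number as a block, only the 2 groups compared, each library left out, and copies summed with the member. A sum over the whole family was added after seeing the data. The fit was tested on simulated data. Replicate numbers were not taken as pairs, since the labels tie no number to a shared animal or day. Of 18 same-numbered pairs of libraries, 10 had deviations correlated above 0.1. In 29 of 36 comparisons of a library with another group, the library of the same number correlated best.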

Additional observations from a re-analysis of the deposited data

Results flagged for a closer look

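The effect of RA differed with and without TGFβ for 13 of the genes that the naming rule takes, by the interaction term of edgeR's quasi-likelihood fit (log2, RA effect with TGFβ minus that without). Apart from the members and textbook targets, the rule takes genes because they were called. The number 13 is therefore set by the selection and is no result about the lists. Over all genes, 19.3% were called in the interaction. Among the members, those called were Serpinb9 (1.56, adjusted p = 0.000158) and Serpinb6b (1.46, adjusted p = 0.00352). Of the proteases and their partners, Prf1 (1.60, adjusted p = 0.0162) and Gzmk (1.47, adjusted p = 0.0302) had the same sign, and Gzmc (-3.60, adjusted p = 0.0022) and Srgn, serglycin (-0.40, adjusted p = 0.0149), the opposite one. The cathepsins Ctsf (-1.24, adjusted p = 0.000724), Ctsb (-0.28, adjusted p = 0.00859), Ctsd (-0.49, adjusted p = 0.0196) and Ctsz (-0.30, adjusted p = 0.0215) were negative. So were Cst3, cystatin C (-0.70, adjusted p = 0.00159), Casp1 (-0.77, adjusted p = 0.0185) and Serpini1 (-0.67, adjusted p = 0.0109). The calls of Gzmk, Ctsd, Ctsz and Casp1 were lost when single libraries were left out, with adjusted p up to 0.0857, 0.0557, 0.0608 and 0.0542.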

How the results depend on the processing

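Over all alternatives, 751 values of members kept their direction and their side of the threshold, 7 lost a call, 13 gained one and 19 changed sign. The number of members called lower in TGFβ + RA against TGFβ, 1, was 2 with no filter on low counts and with only the 2 groups compared, and 1 to 2 with a library left out. Leaving out a library gave 1 to 2 members called lower with RA, and 583 to 1654 genes called higher in the interaction, against 974 (583 without RA replicate 2, 627 without IL-2 + IL-15 replicate 2 and 1654 without RA replicate 3). With RA alone the sign turned for Serpinb9 (0.08 without IL-2 + IL-15 replicate 1, 0.14 without RA replicate 3), Serpinb9b (0.50 without IL-2 + IL-15 replicate 1) and Ctsl (0.01 with only the 2 groups, 0.13 without IL-2 + IL-15 replicate 1, 0.08 without RA replicate 2). Ctsl also turned in TGFβ + RA against TGFβ (0.01 without TGFβ + RA replicate 3). Serpinb1a in TGFβ + RA against RA was -0.05 with copies summed. Interactions that were not called turned for Serpinb1a (0.19 without RA replicate 1), Gzma (0.52 without RA replicate 1), Serpina3g (0.03 without IL-2 + IL-15 replicate 2, 0.06 without RA replicate 3), Ctsl (0.01, 0.00 and 0.02 without IL-2 + IL-15 replicate 2, IL-2 + IL-15 replicate 3 and TGFβ + RA replicate 3) and Serpina3f (-0.02 with the DESeq2 Wald test, and without 1 library -0.22 for IL-2 + IL-15 replicate 3, -0.14, -0.28 for RA replicates 1 and 2, -0.09 for TGFβ replicate 1, -0.02, -0.03 for TGFβ + RA replicates 1 and 3). With a library left out, these same values ranged for Serpinb9 from -0.14 to 0.14, for Serpinb9b from -0.71 to 0.50, for Ctsl from -0.08 to 0.13 with RA and from -0.11 to 0.01 in TGFβ + RA against TGFβ, and for the interactions of Serpinb1a from -0.51 to 0.19, Serpina3f from -0.28 to 0.48, Serpina3g from -0.24 to 0.06, Gzma from -0.44 to 0.52 and Ctsl from -0.20 to 0.02. The cause of these changes was not tested.

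Summing the whole family as 1 row, an alternative chosen after seeing the data, is a different quantity where 2 members differ. It turned Serpina3f with RA (0.44) and in TGFβ + RA against TGFβ (0.47, called, adjusted p = 0.0254), Serpinb6a in TGFβ + RA against IL-2 + IL-15 (-0.64, called, adjusted p = 0.00217), Serpinb1a in TGFβ + RA against RA (-0.05) and the interaction of Serpina3g (0.03); it ended the calls of Serpina3g with RA and of the Serpinb6b interaction, and gave Serpinb9b, through Serpinb9, calls in TGFβ + RA against TGFβ (1.51) and in the interaction (1.56).

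With the replicate number as a block (replicate block), Serpinb1a was called higher with TGFβ (0.53, adjusted p = 0.0297), so 3 members were called higher, and no other member's call changed. Of the 12 libraries, 11 correlated best with a library of their own number, a hint from the data and not the design. Depth limits Serpinb9b, with 5 and 8 counts in the groups with TGFβ.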
